A study of Mus musculus with 21 samples.

Results

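Binding of estrogen receptor alpha (ERα) was compared between visceral and subcutaneous white fat of mice given estradiol. Each depot had 1 deposited peak list, and peaks were ranked in their own list by −log10 p. The 5000 strongest peaks of each list on chromosomes 1 to 19 and X were taken, of 20715 peaks in visceral and 17971 in subcutaneous fat. A peak was called shared when it overlapped any peak of the other depot's whole list by at least 1 bp, and depot-limited when it overlapped none. By that rule 4497 of the visceral top 5000 were shared and 503 were limited to visceral fat (10.1% of the peaks ranked). In subcutaneous fat 4263 were shared and 737 were limited (14.7% of the peaks ranked). Rank 5000 fell within ties: the last peak inside and the first outside both had a −log10 p of 13.5975 in visceral and 11.8288 in subcutaneous fat.

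The series holds 21 samples, and the 2 lists compared here came from 7 chromatin immunoprecipitation (ChIP-seq) libraries. All were from CD-1 mice aged 10 weeks, with 4 libraries of visceral fat (tissue label vWAT) and 3 of subcutaneous fat (scWAT), all after estradiol. Peaks were also looked up in the lists of vWAT after vehicle (2 libraries, 7400 peaks), brown fat after estradiol (BAT, 1 library, 5193 peaks) and Liver after estradiol (2 libraries, 21411 peaks). The antibody was sc543, and the dose, route and time of estradiol, the sex of the mice and whether each library is another mouse were not given in the sources used here. Each group's libraries share 1 list, so there was no value per library and no test between depots, and the read depth is unknown. Intervals given below are 95% Wilson intervals for counting error over peaks, and they hold nothing of the spread between mice. Whole tissue was used, so a peak of fewer cells and a weaker peak in all cells cannot be told apart. Enrichment, the fold over background that the authors gave each peak, was read only within a list, where its median over the top 5000 was 9.32 in vWAT and 6.05 in scWAT.

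ERα is a nuclear receptor that binds estradiol and then attaches to DNA, either at the palindromic estrogen response element or through other proteins bound to DNA. In most tissues its sites lie far from promoters, and which sites are open to it depends on the transcription factors of each cell type. Visceral and subcutaneous fat descend from different mesodermal precursors, keep different developmental regulators in adult life, and are known to respond differently to estrogen in how much fat they store.

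The promoters under vWAT-limited and scWAT-limited peaks differed in their letters, so the 3 strongest of each set are printed. Limited refers to the 2 estradiol lists: the Pgs1 and Pik3ca peaks were also in the vWAT vehicle list. Each is the 250 bases before an annotated transcription start, 5′ to 3′ on the gene's strand, from RefSeq on GRCm38.p6. Capitals mark 2 motifs searched on both strands: GGTCA or TGACC, an arm of the estrogen response element, and CCAAT or ATTGG, the CCAAT box of many basal promoters. The vWAT-limited peaks lay on the promoters of Hnrnpl, an RNA-binding splicing factor (chr7:28810640-28810889, plus strand), Akr1e1, an aldo-keto reductase (chr13:4609165-4609414, minus strand), and Cyld, a deubiquitinase of NF-κB signalling (chr8:88696778-88697027, plus strand).
Hnrnpl: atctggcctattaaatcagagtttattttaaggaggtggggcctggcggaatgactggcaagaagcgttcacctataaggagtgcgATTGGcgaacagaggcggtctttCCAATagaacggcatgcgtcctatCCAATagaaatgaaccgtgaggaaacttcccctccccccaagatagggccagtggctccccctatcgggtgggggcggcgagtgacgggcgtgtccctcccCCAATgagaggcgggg
Akr1e1: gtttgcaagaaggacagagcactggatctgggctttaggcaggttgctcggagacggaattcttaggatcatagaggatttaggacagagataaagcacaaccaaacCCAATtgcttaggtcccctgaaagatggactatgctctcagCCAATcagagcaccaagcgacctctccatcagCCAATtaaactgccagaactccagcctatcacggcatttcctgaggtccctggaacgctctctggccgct
Cyld: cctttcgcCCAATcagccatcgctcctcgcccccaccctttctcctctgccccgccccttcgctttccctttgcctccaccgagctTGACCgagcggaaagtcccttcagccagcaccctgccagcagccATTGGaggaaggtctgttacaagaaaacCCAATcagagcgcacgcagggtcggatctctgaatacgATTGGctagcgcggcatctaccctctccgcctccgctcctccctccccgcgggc
The scWAT-limited peaks lay on those of Pgs1, which makes a precursor of cardiolipin (chr11:117986607-117986856, plus strand), Smim38, a small membrane protein (chr7:145208120-145208369, minus strand), and Pik3ca, the catalytic subunit of the insulin-responsive PI3 kinase (chr3:32396815-32397064, plus strand).
Pgs1: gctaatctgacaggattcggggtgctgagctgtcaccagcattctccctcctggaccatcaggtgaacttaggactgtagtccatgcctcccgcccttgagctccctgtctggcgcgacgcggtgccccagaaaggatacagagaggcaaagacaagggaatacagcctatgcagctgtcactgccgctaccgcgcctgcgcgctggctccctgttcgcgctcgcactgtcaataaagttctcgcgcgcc
Smim38: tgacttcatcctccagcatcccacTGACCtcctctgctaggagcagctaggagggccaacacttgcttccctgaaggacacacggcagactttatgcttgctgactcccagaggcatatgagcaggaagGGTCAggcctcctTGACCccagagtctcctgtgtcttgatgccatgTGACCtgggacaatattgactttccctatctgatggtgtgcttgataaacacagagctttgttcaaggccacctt
Pik3ca: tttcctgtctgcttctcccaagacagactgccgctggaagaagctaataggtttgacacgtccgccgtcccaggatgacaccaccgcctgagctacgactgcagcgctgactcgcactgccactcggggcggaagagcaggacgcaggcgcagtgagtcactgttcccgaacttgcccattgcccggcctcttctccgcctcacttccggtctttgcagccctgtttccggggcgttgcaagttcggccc
The Hnrnpl window held 4 CCAAT boxes, the Akr1e1 window 3 and the Cyld window 4, and the scWAT-limited windows of Pgs1, Smim38 and Pik3ca held 0. The Smim38 window held 4 arms of the response element and the Cyld window 1, and Hnrnpl, Akr1e1, Pgs1 and Pik3ca held 0.

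The strongest sites were mostly common to both depots, and the limited peaks came in toward the lower ranks, earlier in subcutaneous than in visceral fat. Among the first 1000 vWAT peaks 6 were limited (0.6%, 0.275 to 1.30), and among ranks 4001 to 5000 there were 265 (26.5%, 23.9 to 29.3). In scWAT 64 of the first 1000 were limited (6.4%, 5.04 to 8.09), and 211 of ranks 4001 to 5000 (21.1%, 18.7 to 23.7). The limited share was thus higher in scWAT in the first 1000 and higher in vWAT in the last 1000. The intervals count peaks of 1 list per depot and give no test between the depots. The best-ranked limited peak stood at rank 313 in vWAT and at rank 100 in scWAT. When peaks were ranked by enrichment the first 1000 held 12 limited peaks in vWAT and 86 in scWAT, and when sharing needed summits within 100 bp they held 24 and 95. These counts for the first 1000 were chosen after the data were seen.

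**Figure D1:**
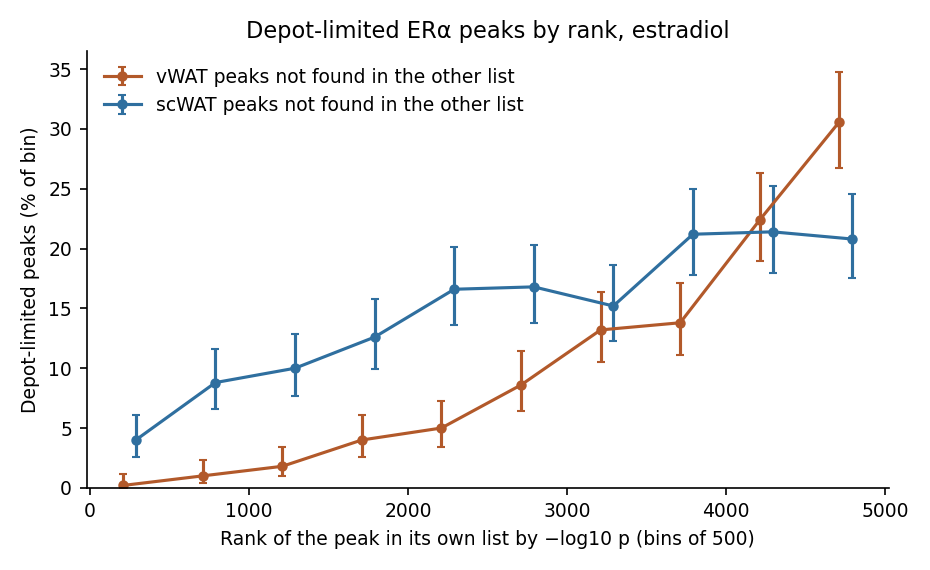
Share of peaks limited to their depot (vertical axis, % of 500 peaks) against the rank in the own list (horizontal axis, by −log10 p), for vWAT and scWAT after estradiol. Points are bins of 500 peaks and bars are 95% Wilson intervals over peaks. The vWAT share runs from 0.2% in the first bin to 30.6% in the last, and the scWAT share from 4.0% to 20.8%.

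Sharing depended on how deep in the other list a partner was accepted. Within the other depot's own top 5000, 3309 vWAT peaks and 3312 scWAT peaks found a partner, 66.2% of each. Among the top 10000 of each list the order of the depots turned, with 71.5% of vWAT and 73.5% of scWAT peaks found in the other whole list. Limited peaks were somewhat weaker than shared ones in their own list, with a median enrichment of 8.01 against 9.58 in vWAT and 5.66 against 6.18 in scWAT. Median widths were 528 against 625 bp in vWAT and 464 against 555 bp in scWAT. Many limited peaks had a site of the other depot in the neighbourhood: the nearest summit of the other list lay within 50 kb for 306 of the 503 vWAT-limited peaks (60.8%) and 504 of the 737 scWAT-limited peaks (68.4%). Within 1 kb it was 18 (3.58%) and 9 (1.22%).

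The strongest vWAT-limited peak lay 24.5 kb outside Gata4, the zinc-finger transcription factor used as a marker of visceral fat (chr14:63295873-63296559, mm10, intergenic). It had rank 313 and an enrichment of 17.4, and the nearest summit of the scWAT list was 118 kb away. Tagap, a GTPase-activating protein of T cells, followed at rank 622 (enrichment 15.9, 26.8 kb outside the gene). Treml1, a receptor of the Trem family on platelets, had a peak 5.87 kb outside the gene at rank 765 (15.8), and Hunk, a protein kinase, one inside the gene at rank 947 (14.8). Hnrnpl stood at rank 1180 (10.5), 2.17 kb inside the gene span and at an internal start, and was also in the vehicle and Liver lists. Of the 10 strongest, 4 had no protein-coding gene within 50 kb, 1 on chromosome X (rank 714), 2 on chromosome 2 (ranks 1018 and 1027) and 1 on chromosome 1 (rank 1157). The Gata4, Tagap, Treml1 and Hunk peaks and these 4 were in none of the 3 lists looked up.

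The 10 strongest scWAT-limited peaks stood higher in their list, at ranks 100 to 320, and none of them was in the vehicle, BAT or Liver list. The first lay inside Ccdc192 (rank 100, enrichment 12.3) and the next 39.5 kb outside Dnttip2, a nucleolar protein gene (rank 113, 13.1). Peaks inside Ablim1, an actin-binding LIM protein (rank 147, 14.2), Gatb, a subunit of the mitochondrial enzyme that makes glutaminyl-tRNA (rank 215, 14.0), and Mprip, a partner of myosin phosphatase (rank 255, 11.7), were intragenic. Peaks near 4930432M17Rik (rank 156, 11.9, 32.6 kb), Cryaa, a lens crystallin (rank 161, 12.2, 2.30 kb), and Clic6, a chloride channel protein (rank 320, 11.2, 7.59 kb), lay outside the genes. The chromosome 9 peak at rank 283 (14.8) and the chromosome 14 peak at rank 301 (12.8) had no gene within 50 kb. The Cryaa, Gatb, Clic6 and 4930432M17Rik peaks had a vWAT summit within 10 kb, at 4.29, 5.95, 6.44 and 7.37 kb, and so had the chromosome 14 peak, at 4.41 kb.

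Depot-limited peaks were mostly away from gene ends, in both depots. A summit at a gene end, meaning within 1 kb of the start or end of a protein-coding span, was seen for 36.3% (34.9 to 37.7) of shared vWAT peaks and for 12.5% (9.91 to 15.7) of limited ones. In scWAT it was 33.1% (31.7 to 34.5) of shared and 6.38% (4.83 to 8.38) of limited peaks. Limited peaks lay more often inside a gene away from its ends, at 42.3% against 31.0% in vWAT and 44.9% against 31.9% in scWAT. Read the other way, 3.72% of the 1694 vWAT top peaks at gene ends were limited, against 13.3% of the 3306 elsewhere, and in scWAT 3.22% of 1459 against 19.5% of 3541. The gene table gives spans without strand, so the 2 ends count alike. Within 5 kb of an end the shares were 21.5% of vWAT-limited and 19.5% of scWAT-limited peaks. In the top 10000 of each list the order of the depots turned, with 13.1% of vWAT-limited and 20.7% of scWAT-limited peaks at gene ends.

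**Figure D2:**
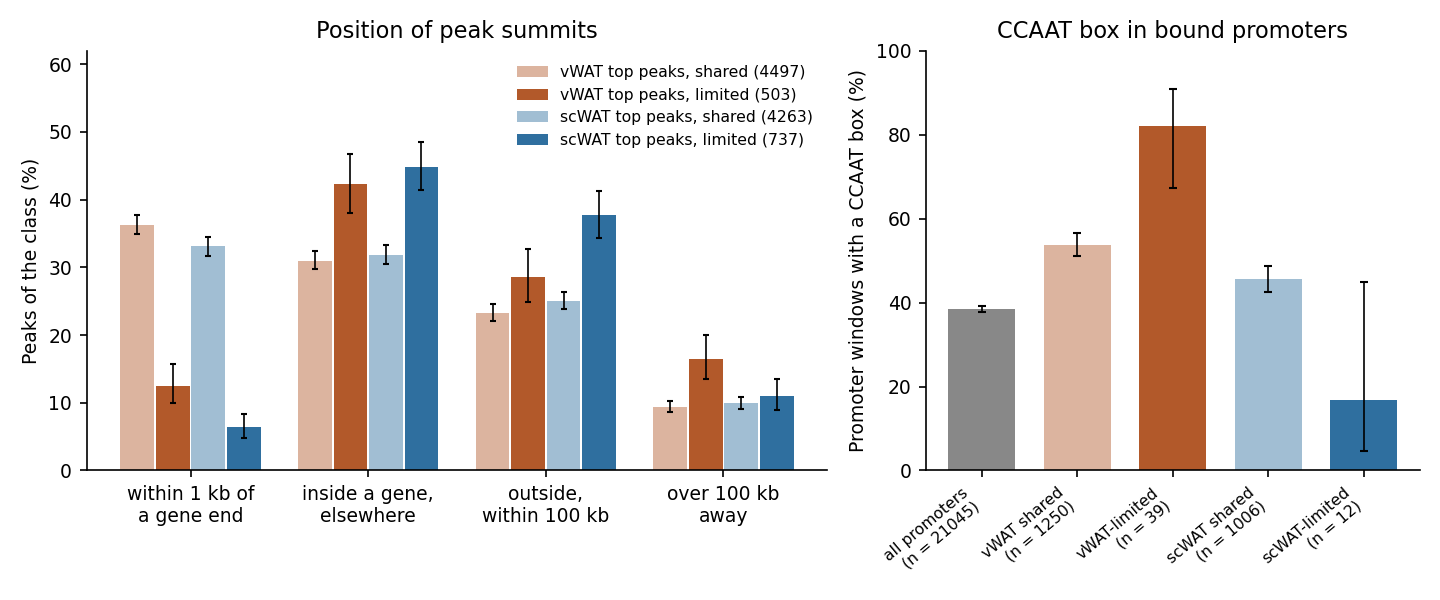
Left, share of peaks (vertical axis, %) by the position of the summit for shared and limited top peaks of vWAT and scWAT. Right, share of RefSeq promoter windows (%) with a CCAAT box, for all promoters and for windows that hold the summit of such a peak; bars are 95% Wilson intervals. At gene ends the limited classes stand at 12.5% and 6.38% against 36.3% and 33.1% for the shared ones, and 82.1% of vWAT-limited windows hold a CCAAT box against 38.5% of all windows.

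The few limited peaks on promoters differed between depots in their letters. In all, 36 vWAT-limited peaks had their summit in a promoter window (39 windows) and 11 scWAT-limited peaks (12 windows). The windows run from 250 bases before to 50 after a start, and 17274 of 21631 protein-coding genes had at least 1. A CCAAT box was present in 32 of the 39 vWAT-limited windows (82.1%, 67.3 to 91.0) and in 2 of the 12 scWAT-limited ones (16.7%, 4.70 to 44.8). Of all 21045 windows 38.5% held it, and of the windows of shared peaks 53.8% in vWAT and 45.6% in scWAT. Arms of the response element were in 12 of 39 vWAT-limited windows (30.8%), 7 of 12 scWAT-limited windows (58.3%) and 39.5% of all windows. The whole palindrome GGTCANNNTGACC was in 11 of all windows (0.0523%) and in 0 of the limited ones. Windows of genes that share a promoter overlap and are not independent, and this count was chosen after sequences had been seen.

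Among the CCAAT-bearing windows of the vWAT-limited set were those of Ezh2, the histone methyltransferase of Polycomb (3 boxes, rank 2862), Hmgb1, a chromatin protein (3, rank 4817), Hnrnpr, a splicing factor (4, rank 2411), and Orc6, a subunit of the replication origin complex (1, rank 4803), which were chosen after their values were seen. Of the 36 vWAT-limited promoter peaks 35 were also in the vWAT vehicle list and 26 in the Liver list. Of the 11 scWAT-limited promoter peaks 5 were in the vehicle list and 7 in the Liver list. The scWAT-limited peaks are by the rule absent from the vWAT estradiol list. Their vehicle count thus cannot be set against that of the vWAT-limited peaks. Of shared top peaks at gene ends, a wider class than promoter windows, 92.5% in vWAT and 89.8% in scWAT were in the vehicle list. In the Liver list were 90.6% and 88.8% of them. Presence in these lists was thus not particular to limited peaks. The Smim38 peak (rank 1377, enrichment 8.81) was in none, whereas the Pgs1 peak (rank 963, 8.73) was in all 3 and had a vWAT summit 3.71 kb away. Near summits of the other list were seen for vWAT-limited promoters too. The nearest scWAT summit lay 1.15 kb away at Hnrnpl, 53.4 kb at Akr1e1, 45.5 kb at Cyld and 0.5 kb at Cenpq.

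Most limited peaks were seen in no other list. Of the 503 vWAT-limited peaks 377 (75.0%, 71.0 to 78.5) were absent from the vehicle, BAT and Liver lists, and of the 737 scWAT-limited peaks 659 (89.4%, 87.0 to 91.4). Of all top peaks 44.4% in vWAT and 50.2% in scWAT were absent from the 3 lists, and of the shared ones 40.9% and 43.4%. The vehicle list of vWAT held 18.7% of the vWAT-limited and 4.21% of the scWAT-limited peaks, against 50.5% and 47.1% of the shared ones. For vWAT-limited peaks this split by position: 49 of 63 at gene ends (77.8%, 66.1 to 86.3) and 45 of 440 elsewhere (10.2%, 7.73 to 13.4) were in the vehicle list. The scWAT-limited peaks showed 14 of 47 (29.8%) and 17 of 690 (2.46%). Shared top peaks of both depots split in the same direction and at higher levels. Of shared vWAT peaks 92.5% at gene ends and 26.7% elsewhere were in the vehicle list. The split by position was thus not particular to limited peaks. A vehicle list of scWAT was not at hand, so the same look-up within scWAT was not possible.

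Limited peaks of scWAT lay in groups more often than those of vWAT. With gaps of up to 50 kb, 141 scWAT-limited peaks formed 65 groups (19.1% of them), and 26 vWAT-limited peaks formed 13 (5.17%). With gaps of up to 25 kb the shares were 12.6% and 1.59%. Groups of 3 or more numbered 9 in scWAT and 0 in vWAT. Over the 503 strongest scWAT-limited peaks, as many as in vWAT, the share was 16.7%. The grouping was examined after the data were seen. Groups of shared or of all top peaks were not counted, so it is not known whether the difference is particular to limited peaks. In the densest group 4 peaks stood within 15.1 kb at Flt4, the lymphatic VEGF receptor, and Scgb3a1, a secretoglobin (chr11:49650671-49665734, best rank 985, enrichment 10.1). The same 4 peaks lay within 25 kb of Cnot6, a deadenylase subunit. Within 25 kb of Flt4 the vWAT list held 0 peaks of any rank. Another 4 stood within 65.2 kb around Abcb9, Hip1r and Vps37b, an ESCRT subunit (best rank 1369, 7.88). A group of 3 stood beside Pgs1 and Socs3, the feedback inhibitor of cytokine signalling (best rank 963), and 3 around 4930432M17Rik and F3, the tissue factor that starts coagulation (best rank 156).

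The vWAT-limited peaks were spread more thinly over genes. Lrmda, a very long gene of 1037 kb, had 4 (best rank 2954, enrichment 7.74), beside 5 shared top peaks. Trem2, the lipid-sensing receptor of macrophages, had 2 (best rank 765, 15.8), with the stronger also the nearest to Treml1. Hunk (best rank 947), Serpinb1c, a serine protease inhibitor (best rank 1299, 11.2), and Tshz2, a zinc-finger factor (best rank 2276, 9.67), had 2 each. In all, 531 of 21631 protein-coding genes (2.45%) had a vWAT-limited top peak within 25 kb of their span, and 760 (3.51%) a scWAT-limited one. The numbers moved with the distance allowed, to 312 and 424 within 5 kb and 1338 and 1899 within 100 kb. Both kinds were found within 25 kb of 26 genes (0.120%).

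At those 26 genes limited peaks of both depots lay near the same gene, which does not show that the gene is their target, and some peaks were counted for several genes. In Hivep2, a zinc-finger factor, the vWAT-limited summit (rank 3152) and the scWAT-limited summit (rank 1531) were 1.74 kb apart. At Por, the electron donor of microsomal P450 enzymes, and its neighbours Styxl1 and Tmem120a they were 6.58 kb apart (ranks 4273 and 3646). In Sdk2, a synaptic adhesion molecule, they were 41.7 kb apart (ranks 2799 and 874), and at Abca4, a retinal lipid transporter, 49.5 kb (4197 and 1817). At Bpifc, Fry and Syn3 they were 48.1, 156 and 224 kb apart, and the vWAT-limited peak counted for Bpifc and Syn3 was the same one (rank 3538), inside Fbxo7.

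Near known regulators of depot identity, the limited top peaks were few and lay in the depot that the regulator is known for. This rests on 1 visceral and 2 subcutaneous genes, in lists chosen with earlier results of these data known. Of 13 visceral regulators 1 had a limited vWAT top peak (7.69%, against 2.45% of all genes) and 0 a limited scWAT one. Of 18 subcutaneous regulators 2 had a limited scWAT top peak (11.1%, against 3.51% of all genes) and 0 a limited vWAT one. The visceral gene was Gata4, whose other top peak was shared (rank 1796 in vWAT and 6256 in scWAT). The subcutaneous genes were Tbx15, a T-box factor (rank 1736, enrichment 7.24, inside the gene at chr3:99247809-99248299), and Twist2, a basic helix-loop-helix factor (rank 4830, 4.66). The vWAT list held 0 peaks within 25 kb of Tbx15, and the scWAT list held 4. Twist2 was not bound in scWAT alone. It had 4 vWAT peaks, all unshared and below the top 5000 (best rank 7910), beside 2 scWAT peaks, both unshared. Wt1, a mesothelial and visceral fat regulator, had 4 vWAT peaks, all below the top 5000 (best rank 8469), and 0 scWAT peaks.

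The full lists did not follow the names of the regulators in the same way. Peaks near the subcutaneous markers Hoxc9 (3 peaks), Hoxc10 (2) and Emx2 (2) were found in the vWAT list and 0 in the scWAT list, all below the top 5000. Both Hoxc10 peaks were also counted for Hoxc9. Prrx1, a mesenchymal homeobox gene, had a strong shared peak at rank 109 in vWAT and 130 in scWAT. Gata6, the close relative of Gata4, had a shared peak at rank 996 in vWAT and 3477 in scWAT, and Pitx1, a hindlimb factor, a shared peak at rank 18169 in vWAT and 2718 in scWAT. In the full lists 3 of 13 visceral regulators had peaks in vWAT alone (23.1%) and 0 in scWAT alone, and of the subcutaneous regulators 5 of 18 (27.8%) and 1 (5.56%), against 8.10% and 7.57% of all genes. With Hoxc9 and Hoxc10 counted for the same peaks, the 5 genes are not 5 independent sites.

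**Figure D3:**
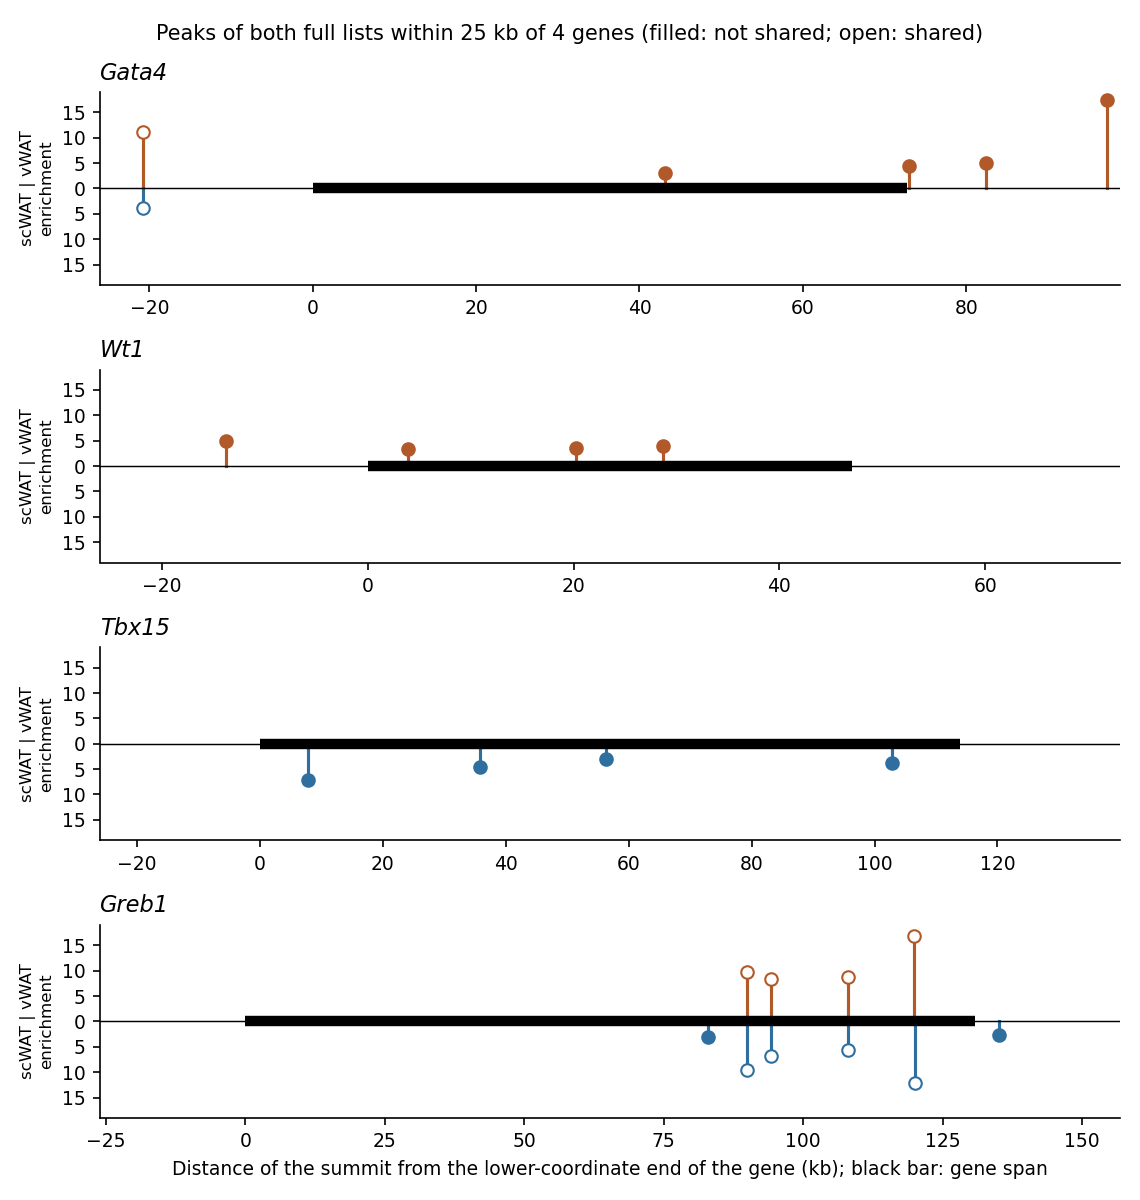
Peaks of both full lists within 25 kb of Gata4, Wt1, Tbx15 and Greb1: enrichment of vWAT peaks upward and of scWAT peaks downward (vertical axes, the authors' fold, not comparable between lists) against the distance of the summit from the lower-coordinate end of the gene (horizontal axes, kb). Black bars are gene spans, filled points peaks without overlap in the other list, open points shared peaks. Gata4 and Wt1 carry 4 unshared vWAT peaks each, Tbx15 4 unshared scWAT peaks, and Greb1 4 shared sites.

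The top peaks near classical estrogen targets were shared between the depots, as were 89.9% of all vWAT and 85.3% of all scWAT top peaks. Weaker ones often were not. Of 24 estrogen-response genes 10 had a vWAT top peak and 9 a scWAT top peak within 25 kb (41.7% and 37.5%, against 28.1% and 27% of all genes), and 0 had a limited one of either depot, against 2.45% and 3.51% of all genes. For 24 genes a count of 0 is near those shares and does not set these genes apart. Below the top 5000, all 5 vWAT peaks and the 1 scWAT peak of Igf1 and both vWAT peaks of Myc were unshared, and Tff1, Ctsd, Rbbp8 and Cxcl12 had peaks in scWAT alone. Greb1, an early estrogen-induced gene, had all 4 of its vWAT peaks shared, at ranks 456, 819, 1102 and 3574 in vWAT and 486, 523, 1185 and 3542 in scWAT. It had 2 further scWAT peaks, at ranks 13696 and 17394, that were not shared. Pgr, the progesterone receptor, had shared peaks at ranks 153 and 514 in vWAT and 205 and 1791 in scWAT. A further shared Pgr peak stood at rank 6528 in vWAT and 2212 in scWAT. Esr1, which encodes ERα, had its 2 strongest peaks shared at ranks 920 and 1912 in vWAT and 1030 and 2109 in scWAT. Of all its peaks, 8 of 15 in vWAT and 3 of 10 in scWAT were unshared. Over the full lists 48.4% of vWAT and 56.0% of scWAT peaks were found in the other list. Unshared weaker peaks were thus not particular to these genes.

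Limited top peaks near lipid-handling genes were few. Over all genes 2.45% had a vWAT-limited and 3.51% a scWAT-limited one. Fatty acid uptake had 3 of 15 members (20%) with a vWAT-limited peak and 0 with a scWAT-limited one. Any vWAT top peak was near 66.7% of these members, against 28.1% of all genes. Cav1 and Cav2, which form caveolae, shared 1 peak (rank 1956, enrichment 10.9, chr6:17295127-17295750), and Lrp1, a lipoprotein receptor, had the other inside the gene (rank 3924, 6.01). Lipolysis had 1 of 20, Pde3b, the phosphodiesterase through which insulin restrains lipolysis (rank 3181, 9.41, inside the gene), and lipogenesis 1 of 19, Thrsp, a lipogenic nuclear protein (rank 4904, 6.77). These shares of 5% and 5.26% rest on 1 member each and are near that of all genes, and neither list had a scWAT-limited member. Of insulin and glucose genes 1 of 19 was vWAT-limited and 1 scWAT-limited. Foxo1, the insulin-repressed transcription factor, had a vWAT-limited peak 23.5 kb outside the gene (rank 1953, 8.2), 4 vWAT peaks in all and 0 in scWAT. Pik3ca had its scWAT-limited promoter peak (rank 2230, 5.68), which was also in the vWAT vehicle and Liver lists, and 0 peaks of the vWAT estradiol list within 25 kb.

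Adipogenic transcription factors carried limited peaks of both depots, 3 of 19 members each (15.8%, against 2.45% and 3.51% of all genes). Any top peak was near 57.9% of these members in vWAT and 47.4% in scWAT, against 28.1% and 27% of all genes. Their median span was 78.3 kb, against 17.3 kb for all genes, and the comparison was not matched for span. Of the 3 scWAT members 2 were counted for the same peak. In vWAT they were Cebpa, a master regulator of adipocyte differentiation (rank 4875, enrichment 4.87), Zfp423, a preadipocyte factor (rank 4186, 8.26), and Ebf1 (rank 4742, 7.28), all near the rank limit. In scWAT they stood further up the list. Stat5a and Stat5b, mediators of growth hormone and prolactin signals, shared 1 at rank 941 (8.61, chr11:100854208-100854646), and Rxra, the heterodimer partner of PPARγ, had 2 inside the gene (best rank 1469, 7.92). Zfp423, Stat5a, Stat5b and Rxra also had top peaks of both depots at other sites, with best ranks of 279 in vWAT and 277 in scWAT at Zfp423, and 170 and 51 at Stat5a and Stat5b.

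Pparg, the master regulator of fat cells, had no limited top peak: its strongest peak was shared, at rank 1921 in vWAT and 3084 in scWAT. Lep, which encodes leptin, had 4 vWAT peaks and 1 scWAT peak, and the strongest was shared at rank 1447 in vWAT and 3758 in scWAT. Adipoq, which encodes adiponectin, had its strongest peak shared at rank 4892 in vWAT and 6933 in scWAT. Among the 16 adipokines 2 had vWAT-limited peaks (12.5%, against 2.45% of all genes). They were Agt, the angiotensin precursor (rank 3743, enrichment 9.01), and Fgf21 (rank 4230, 6.88, also in the vehicle and Liver lists). Both also had shared top peaks in both depots, with best ranks of 2931 in vWAT and 1949 in scWAT at Agt, and 609 and 990 at Fgf21. Itln1, the omentin gene, was the 1 with a scWAT-limited peak (rank 4284, 3.42), or 6.25% against 3.51% of all genes. Any top peak was near 9 of the 16 adipokines in vWAT (56.2%) and 8 in scWAT, against 28.1% and 27% of all genes. The limited counts rest on 2 genes or fewer.

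Signalling and patterning lists gave further single sites. Of the Wnt pathway 3 of 23 members had vWAT-limited peaks (13.0%) and 2 scWAT-limited ones (8.70%), against 2.45% and 3.51% of all genes. Wnt5b, a ligand, had 1 of each depot, at 96.5 kb from each other (ranks 4444 and 3940). The receptors Fzd2 (rank 4570) and Fzd4 (rank 4868) had vWAT-limited peaks, and the co-receptor Lrp5 had 2 scWAT-limited ones (best rank 3241, enrichment 4.53). Of TGF-beta and BMP genes Ltbp1, which holds latent TGF-beta in the matrix, had a vWAT-limited peak (rank 4542), and the ligand Tgfb3 (rank 2196, 6.75) and the signal transducer Smad3 (rank 2514, 6.27) had scWAT-limited ones. Of growth factors and receptors 2 of 23 (8.70%) were vWAT-limited, Igf1r, the receptor of IGF-1 (rank 1881, 10.8, inside the gene and also in the vehicle list), and Fgf1 (rank 4385, 6.21), and 0 scWAT-limited. Median spans were 43.5 kb in the Wnt list and 78.8 kb in the growth factor list, against 17.3 kb for all genes. The comparison with all genes was not matched for span. All 6 Hox genes with a vWAT-limited peak, Hoxd8 to Hoxd13, were counted for 1 peak at Hoxd11 (rank 4042, 7.71, chr2:74679363-74680017). Of the 39 Hox genes 31 had a vWAT peak of any rank and 15 a scWAT peak (79.5% and 38.5%, against 61.5% and 61.0% of all genes). Neighbouring Hox genes are short and were often counted for the same peak in the other clusters too, so these are not independent sites.

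Nuclear receptors and cofactors had Ncoa2, a coactivator of ERα, in vWAT (rank 4007, enrichment 7.79, also in the vehicle and Liver lists), and Rxra in scWAT. Circadian genes had Rora in vWAT (rank 4036, 8.27) and Bhlhe41, a repressor of the clock, in scWAT (rank 2986, 6.18). Slit3, an axon guidance ligand, had a vWAT-limited peak (rank 4774, 5.54). Esrrg, an orphan receptor of oxidative metabolism (rank 4834, 8.15), was the 1 of 20 thermogenic genes.

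**Figure D4:**
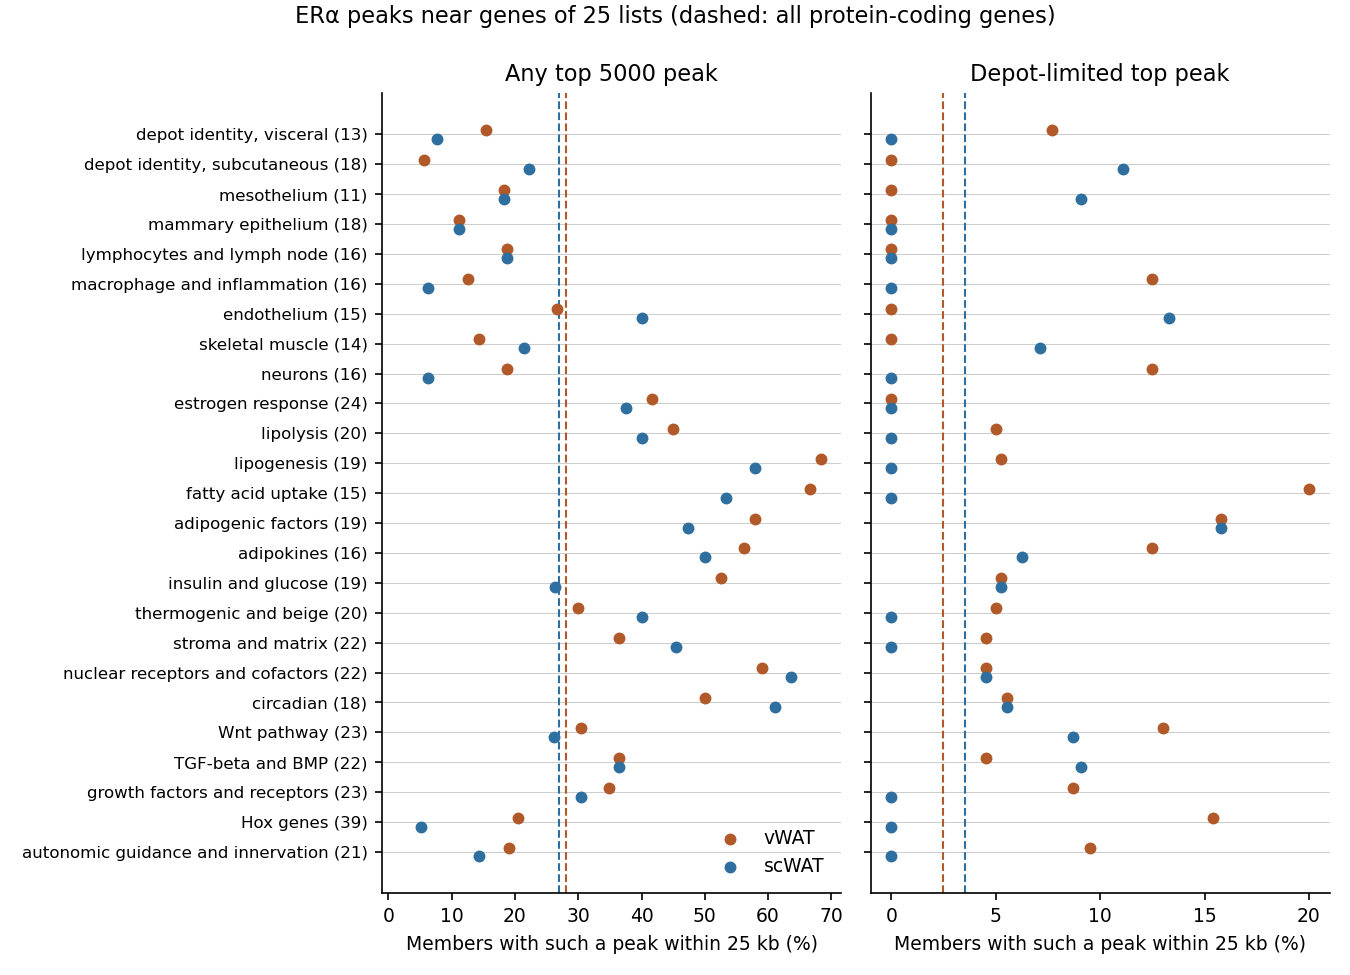
Share of the members of 25 gene lists (rows, number of members in brackets) with a peak within 25 kb (horizontal axes, %), for any top 5000 peak on the left and for depot-limited top peaks on the right, in vWAT and scWAT. Dashed lines are all protein-coding genes, at 28.1% and 27% on the left and 2.45% and 3.51% on the right. Fatty acid uptake stands at 20% for vWAT-limited peaks and 0% for scWAT-limited ones, and on the right each list's share rests on 6 members or fewer.

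Markers of other cell types were looked up because whole fat pads hold more than adipocytes, and subcutaneous fat of mice can carry mammary gland and lymph node. Over all genes 2.45% had a vWAT-limited and 3.51% a scWAT-limited top peak, and each marker count below rests on 2 genes or fewer. Limited top peaks were found near 0 of 18 mammary epithelial and 0 of 16 lymphocyte and lymph node markers in either depot. Mesothelial markers, a cell layer of visceral fat, had 0 of 11 with a vWAT-limited peak and 1 with a scWAT-limited one, Krt19 (rank 4580, enrichment 4.76). Of 15 endothelial markers 2 had scWAT-limited peaks, the receptor Tie1 (rank 1565, 8.34) and Vwf, the von Willebrand factor (rank 3340, 5.84), and 0 vWAT-limited ones. Of 16 macrophage markers 2 had vWAT-limited peaks, Trem2 and Nos2, the inducible nitric oxide synthase (rank 4726, 7.82), and 0 scWAT-limited ones. Pax7, of muscle stem cells, was the 1 of 14 muscle markers (scWAT, rank 3144, 6.01). The neuronal genes Syn1 (rank 3449, 8.93) and Rbfox3 (rank 4727, 7.82) had vWAT-limited peaks, and the Syn1 peak lay at the promoter of Araf, was counted for Timp1 too, and was in the vehicle and Liver lists. In the full lists 8 of 11 mesothelial, 10 of 18 mammary and 8 of 16 lymphocyte markers had a vWAT peak and 6, 7 and 8 a scWAT peak, against 61.5% and 61.0% of all genes. What part other cells had in the differences was not tested.

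Shared peaks kept much of their order between the depots, with a tail in each direction. The overlapping peaks of the full lists formed 9933 one-to-one pairs, which were ranked anew by −log10 p within each depot (places 1 to 9933) so that both orders had the same length. Of these, 5447 pairs had a peak in either top 5000, and their median shift was 1116 places, or 11.2% of all places. Places differed by at most 10% for 2535 pairs (46.5%). They differed by more than 25% toward vWAT for 714 pairs (13.1%) and toward scWAT for 704 (12.9%). Where both peaks were in the top 5000 the median shift of 3308 pairs was 5.53%. The paired summits lay a median of 38 bp apart.

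**Figure D5:**
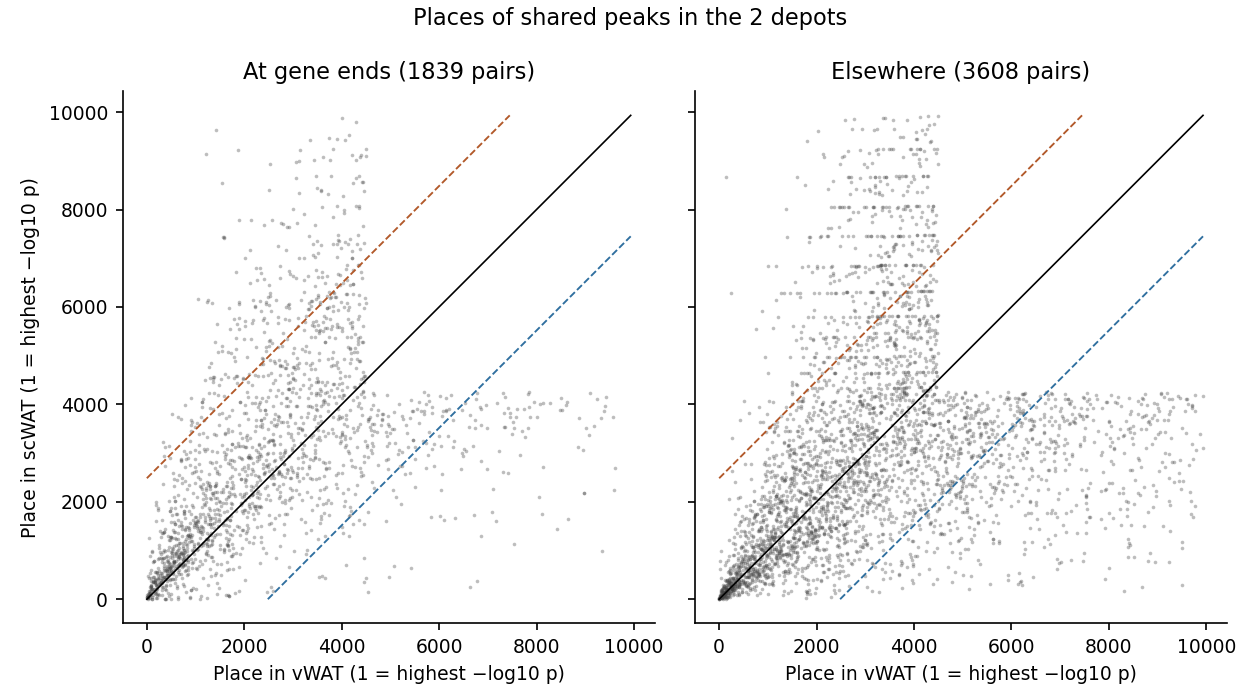
Places of the 5447 shared pairs with a peak in either top 5000, in vWAT (horizontal axis) and scWAT (vertical axis), for 1839 pairs at gene ends (left) and 3608 elsewhere (right). The solid line marks equal places and dashed lines a shift of 25% of places toward vWAT (upper) or scWAT (lower); the empty upper right corner follows from the choice of pairs, and bands come from tied values. More gene-end pairs lie above the solid line (64.9% higher in vWAT) than elsewhere (48.6%).

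Several sites stood near the head of both lists. An intergenic site on chromosome 6 (chr6:100059708-100060544) held rank 2 in both lists, and the site 29.5 kb from Rpusd4 held rank 1 in vWAT and 5 in scWAT. Sites in Gm12248 (5 and 13), near Cradd (4 and 15) and at the end of Kmt5b, a histone methyltransferase (17 and 6), followed. All 5 were also in the vehicle and BAT lists. The first scWAT peak of all was shared too, at the end of Gpr137, but its vWAT partner stood at rank 376. Likewise the scWAT peaks at ranks 3 and 4, at the ends of Hnrnpa2b1 and Ddx17, had vWAT partners at ranks 97 and 114 (these 3 were chosen after their values were seen). Of the first 1000 peaks 655 of each depot had their partner among the first 1000 of the other, and 989 vWAT and 894 scWAT peaks had it in the top 5000.

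Pairs at gene ends stood higher in vWAT more often than pairs elsewhere. Of 1839 gene-end pairs 1194 had the better place in vWAT (64.9%), against 48.6% of the 3608 others. When places were taken by enrichment the shares were 67.7% and 43.3%. Pairs also in the vWAT vehicle list stood higher in vWAT in 62.7% of 2525 cases, and pairs absent from it in 46.7% of 2922. Among pairs shifted by over 25% toward vWAT 36.3% were at gene ends and 47.5% in the vehicle list, and among those shifted toward scWAT 18.9% and 24.4%. Over all 5447 pairs the shares were 33.8% and 46.4%. Pairs shifted toward vWAT were thus near the shares of all pairs, and those shifted toward scWAT were below them. The CCAAT box was in 171 of 213 promoter windows of pairs shifted by over 25% toward vWAT (80.3%, 74.4 to 85.1). For pairs shifted by at most 10% it was in 42.2% of 716 windows, and for pairs shifted toward scWAT in 21 of 49 (42.9%, 30.0 to 56.7).

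The 10 largest shifts toward vWAT ran from 70.6% to 85.7% of places. The first was an intergenic site on chromosome 15 at rank 150 in vWAT (enrichment 16.8) and 13794 in scWAT (3.09). Mrps25, a mitochondrial ribosomal protein (ranks 1426 and 16572), Tdrkh, a piRNA pathway protein (1225 and 14806), Sdf2l1, an endoplasmic reticulum chaperone component (1900 and 15535), and Qrsl1, the partner subunit of Gatb (1554 and 12989), were bound at gene ends. Each of these 4 sites was also in the vehicle and Liver lists. Sites inside Aff3 (1830 and 15743), Zc2hc1c (2663 and 17433) and P4ha3, a collagen prolyl hydroxylase (1626 and 13536), near Glcci1 (2067 and 16449) and on chromosome 9 (2867 and 17547) completed the 10. Of the 10, 7 were in the vehicle list.

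The 10 largest shifts toward scWAT ran from 80.8% to 92.6% of places, and 9 of the 10 lay away from gene ends. An intergenic site on chromosome 13 held rank 18384 in vWAT (enrichment 3.87) and 303 in scWAT (13.1), and 1 on chromosome 1 held 15040 and 263. Lifr, the receptor of leukaemia inhibitory factor, had a site inside the gene at ranks 13525 and 173 (4.15 and 13.1). Sites inside Igsf21 (17146 and 806) and Map3k13, a kinase of stress signalling (15467 and 827), near Zbtb8a (18413 and 1135) and Eif5, a translation initiation factor (15981 and 803), on chromosome 18 (18396 and 1275) and at an end of Apc, the Wnt pathway inhibitor (17692 and 1063), were among the others. The Apc summits lay 467 bp apart, the widest gap of the 10. None of the 10 was in the vehicle or Liver list.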

How the data were processed

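ERα ChIP-seq peak lists of 5 groups were used. Per the labels' protocols, nuclei from snap-frozen tissue were sonicated and immunoprecipitated with sc543. The genome build mm10 and the tools BWA 0.7.12 and HOMER are listed, without their role, per the submitters' processing notes. The peak caller, its threshold and the pooling of libraries were not given in the sources used here. More or deeper libraries can give a longer list. The authors deposited for each peak a score, a fold enrichment (a ratio to an unstated background), a −log10 p-value, a −log10 q-value and the summit. The smallest −log10 q-value within the top 5000 was 10.3 in vWAT and 8.51 in scWAT.

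Peaks were ranked by the deposited −log10 p-value, ties were broken by enrichment and then position, and overlaps, shares, one-to-one pairs and places were computed with Python 3.11.15, pandas 2.3.3, numpy 2.4.6, scipy 1.17.1, with figures from matplotlib 3.10.9. Positions count from 1 on mm10. Genes were 21631 protein-coding spans of RefSeq on GRCm38.p6, the assembly of mm10, and a peak was counted for a gene with its summit in the span or up to 25 kb from it. A peak took the nearest gene within 50 kb as its name. All 453 genes of the 25 lists matched. Promoter windows, none of them on chromosome 18, came from RefSeq, and sequences of distal peaks were not analysed here. The overlap step was tested on simulated data.

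Named were the 10 strongest limited peaks of each depot, the 10 largest shifts each way, the 5 pairs highest in both, the 5 genes with most limited peaks per depot, up to 4 members of each list, all depot identity genes with such a peak, the 8 genes with the strongest limited peaks of both depots, and Greb1, Pgr, Esr1, Lep, Adipoq and Pparg. Other genes of these lists are named for contrast, and a few genes picked by this rule are not reported here. The members and lists were chosen with earlier results of these data known. Alternatives covered ranking by enrichment, other numbers of top peaks, stricter overlap, other look-up lists and other gene distances.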

Additional observations from a re-analysis of the deposited data

How the results depend on the processing

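Of 46 alternative values of the main results 33 moved by more than the counting interval of the main value, or by over 1.5 times for counts of genes, or at all for the median shift, and 13 did not. The share of vWAT top peaks found in scWAT was 87.3% when ranked by enrichment, 97.6% for the top 2500, 71.5% for the top 10000, 79.3% with summits within 100 bp, 86.1% with reciprocal overlap of 50% and 66.2% when looked up in the top 5000. The share of scWAT top peaks found in vWAT was 84.1%, 89.6%, 73.5%, 75.0%, 82.8% and 66.2% in the same order. So vWAT peaks were found more often under each of these settings except the top 10000, where the order turned, and the top 5000 look-up, where the shares were equal.

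Gene-end shares within 5 kb were 21.5% (vWAT-limited), 45.9% (vWAT shared), 19.5% (scWAT-limited) and 43.9% (scWAT shared). With transcription starts alone, added after seeing the data, they were 9.34%, 32.6%, 4.21% and 29.1%. For the top 2500 the vWAT-limited share was 16.7%, the vWAT shared 39.4% and the scWAT-limited 3.46%, and for the top 10000 the vWAT shared was 33.4% and the scWAT-limited 20.7%, now above the vWAT-limited 13.1%. The cause was not tested. Limited peaks stayed below shared ones in each of these.

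Genes with a vWAT-limited peak numbered 312 within 5 kb, 1338 within 100 kb and 1433 when sharing needed summits within 100 bp, and genes with a scWAT-limited peak 424, 1899 and 1534. The median shift of pairs was 12.2% by enrichment and 11.9% for summits within 100 bp. The share of limited peaks in groups, with gaps of 25 and 100 kb, was 1.59% and 9.54% in vWAT and 12.6% and 26.9% in scWAT. No paired analysis was possible because each group had 1 peak list and no test was run. For the same reason no library could be left out in turn.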

Other observations

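The remaining groups of 3 or more scWAT-limited peaks, named here after their values were seen, lay at Trim24, a cofactor of nuclear receptors (3 peaks within 39.1 kb, best rank 1097, enrichment 9.31), Glis1, a zinc-finger factor (3 within 35.2 kb, best rank 1654, 7.77), Tnxb, a matrix tenascin (3 within 15.3 kb, best rank 3594, 5.34), and Zfp664 (3 within 25.3 kb, best rank 4034, 5.28). An intergenic group of 3 with no protein-coding gene within 50 kb stood on chromosome 11 (chr11:31503546-31596225, best rank 390, 14.4). Its strongest summit was 2.32 kb from the nearest vWAT summit.

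Short distances between a vWAT-limited and a scWAT-limited summit were also seen at Ttc7 and Stpg4, 2.89 kb apart (ranks 4990 and 1826), and at Itpk1, an inositol phosphate kinase, 7.51 kb apart (ranks 4946 and 1577). At Abcc8, the sulfonylurea receptor of potassium channels, they were 37.9 kb apart (ranks 4983 and 2381). In each of these 3 places the vWAT-limited peak stood near rank 5000.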
